A study of Mus musculus with 2 samples.

Results

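Complement components and regulators were followed in single cells of the mouse molar. The set holds 9 genes, C1qa, C1qb, C1qc, C1s1, C1ra, C3, C4b, Cfd and Serping1, taken by name. Earlier results of these data were known when they were chosen. Each symbol matched 1 row among the 34285 genes counted in both libraries. Of the 9 genes, 8 had at least 1 transcript in the cells used, and Cfd had none.

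First mandibular molars with surrounding tissue were taken at PN15.5 from C57BL/6J mice and digested to single cells with Dispase and Collagenase I. Mice in the Lipo-Clo group were injected intraperitoneally with clodronate liposomes, an agent taken up by phagocytes and used to deplete macrophages, at 40 μg/g, first on PN3.5 and again on PN6.5, on PN9.5 and on PN12.5. Mice in the Lipo-PBS group received vehicle liposomes on the same days. The comparison of the groups asks which cells carry complement transcripts, and how much of them, when macrophages are targeted. Each group is 1 10x Genomics library, both carry the same batch label, and the number of mice in a library is not given in the sources used here. No test between groups was therefore possible and no difference has a replicate check. All intervals below are 95% intervals (exact Poisson for levels, Clopper-Pearson for shares, exact for the ratio of 2 Poisson counts) and cover counting error only.

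Complement is a cascade of blood and tissue proteins that tags microbes, dying cells and debris. In the classical pathway, C1q binds the target and the attached proteases C1r and C1s cut C4 and C2, which leads to cleavage of C3, the central component. C1 inhibitor, encoded by Serping1, blocks C1r and C1s, and factor D, encoded by Cfd, starts the alternative pathway and is best known from fat cells. Tissue macrophages are a known source of C1q, whereas C1r, C1s and C1 inhibitor are made by many stromal cells.

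The sequences just before the start of C1qb and C1qc are shown because these genes, with C1qa, lie side by side and had almost the same pattern over cell classes. They are RefSeq promoter windows (250 bases, build GRCm38.p6, read 5′ to 3′ along the gene's strand), and capitals mark GAGGAA or its reverse complement, the core letters bound by the myeloid factor PU.1. The C1qb window is chr4:136886201-136886450 and the C1qc window is chr4:136892915-136893164, both on the minus strand. The C3 window, chr17:57228137-57228386 on the minus strand, is shown for contrast, since C3 lay mainly in other cells. Those cells include neutrophils and other myeloid classes, so the contrast is not with a gene outside the myeloid cells.
C1qb: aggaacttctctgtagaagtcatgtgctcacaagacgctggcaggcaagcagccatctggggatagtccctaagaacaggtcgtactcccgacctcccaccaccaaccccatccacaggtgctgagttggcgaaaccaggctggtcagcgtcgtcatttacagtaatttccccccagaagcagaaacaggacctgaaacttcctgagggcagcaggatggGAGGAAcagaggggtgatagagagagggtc
C1qc: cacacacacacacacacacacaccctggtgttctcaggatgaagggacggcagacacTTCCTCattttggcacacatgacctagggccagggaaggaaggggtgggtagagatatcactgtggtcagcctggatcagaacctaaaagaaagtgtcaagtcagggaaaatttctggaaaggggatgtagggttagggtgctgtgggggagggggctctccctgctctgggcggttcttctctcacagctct
C3: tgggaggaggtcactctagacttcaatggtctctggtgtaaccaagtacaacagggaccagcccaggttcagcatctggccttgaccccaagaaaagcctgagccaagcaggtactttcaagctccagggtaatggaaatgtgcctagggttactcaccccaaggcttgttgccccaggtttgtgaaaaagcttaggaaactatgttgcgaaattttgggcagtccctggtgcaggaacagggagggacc
GAGGAA begins 30 bases before the C1qb start on the plus strand of the window, and its reverse complement lies 193 bases before the C1qc start. On both strands, GAGGAA was found in 23.3% of 32851 promoter windows of the same length, TATAAA in 12.4% and CCAAT in 33.8%. No window of C1ra, C1s1, Cfd or C3 held any of these 3 motifs, and 6 of the 9 genes had a window in the reference. C1qa, C4b and Serping1 had no entry.

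Unique molecular identifiers (UMIs, one for each captured transcript) were summed over the cells of a class and are given per 1000000 UMIs of that class (CPM). After filtering, 8254 Lipo-Clo and 8261 Lipo-PBS cells were used, with medians of 2570 and 2680 UMIs. They were clustered with all complement genes left out and named from marker lists into 14 classes. Of these, 139 Lipo-Clo (1.68%) and 172 Lipo-PBS cells (2.08%) fell in the macrophage-like clusters, and all 16 listed macrophage markers were seen in both, at summed levels of 12865 and 14585 CPM. Other classes differed more in number. Neutrophils made up 6.15% of Lipo-Clo and 2.30% of Lipo-PBS. Clusters carrying markers of several lineages held 98 and 862 cells, nearly all of them Lipo-PBS. Among these clusters, the one led by Ccl12, Pf4 and Ccl4 carried 12 macrophage markers and held 1 Lipo-Clo and 46 Lipo-PBS cells. Those led by Cstdc5 and Stfa1 (14 and 98 cells) and by Ngp and Camp (5 and 45) carried 8 neutrophil markers each. They are not in the macrophage and neutrophil numbers above. Calling macrophages by at least 3 UMIs over 7 markers gave 206 and 344 cells. Mitochondrial genes took 0.371% of UMIs in Lipo-Clo and 1.74% in Lipo-PBS, and the libraries shared 30 cell barcodes. The part of these differences in the results below was not tested. Erythroid cells, which should lack these transcripts, gave the background from free RNA and carried collagen-list RNA (Col1a1, Col1a2, Col3a1 and Sparc) at 9095 and 11807 CPM. In B cells the same list was at 14813 and 20804 CPM.

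**Figure D1:**
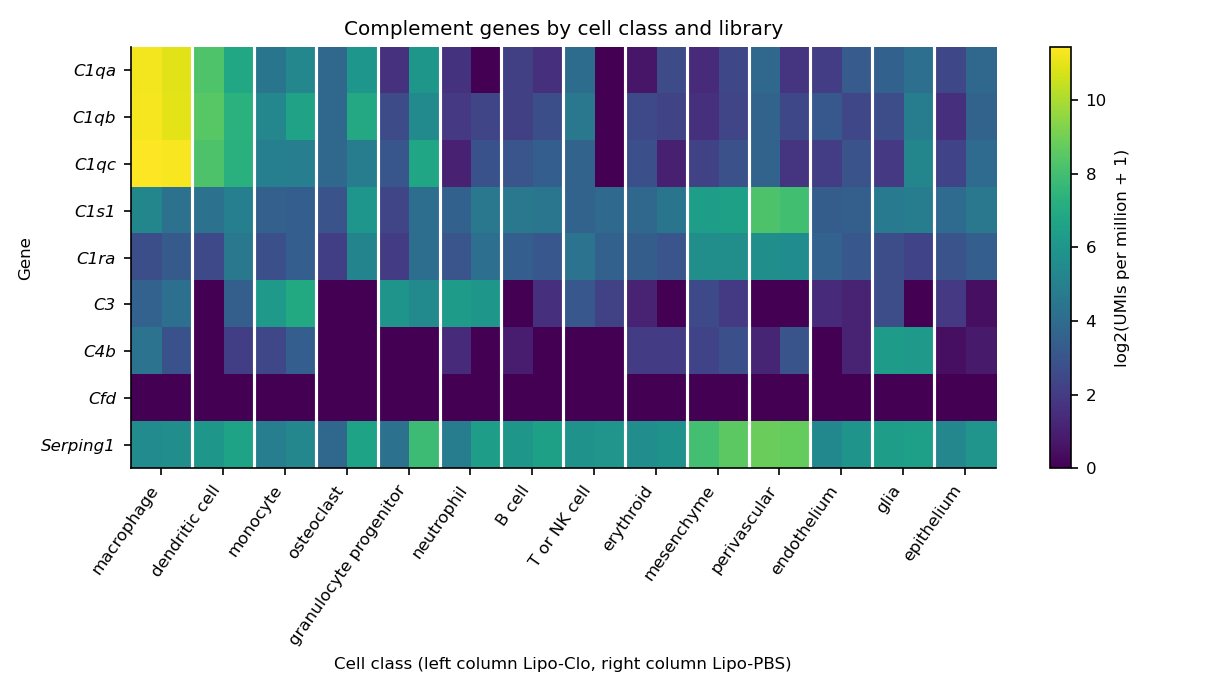
Level of each of the 9 complement genes, as log2(CPM + 1), in 14 cell classes, with Lipo-Clo in the left and Lipo-PBS in the right column of each class. C1qa, C1qb and C1qc are brightest in macrophages, Serping1 and C1s1 in mesenchyme and perivascular cells, C3 in myeloid classes and C4b in glia, and Cfd is dark throughout.

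The 3 chains of C1q, the recognition part of C1, lay mainly in macrophages, and their macrophage level was modestly higher in Lipo-Clo. C1qa, the A chain (ENSMUSG00000036887), had 854 UMIs in Lipo-Clo macrophages and 918 in Lipo-PBS macrophages, or 2411 CPM (2252 to 2578) and 1952 CPM (1828 to 2082). C1qb, the B chain (ENSMUSG00000036905), had 880 and 955 UMIs, or 2484 and 2031 CPM. C1qc, the C chain (ENSMUSG00000036896), had 988 and 1204 UMIs, or 2789 and 2560 CPM. The log2 ratio, Lipo-Clo over Lipo-PBS, was 0.30 (0.17 to 0.44) for C1qa and 0.29 (0.16 to 0.42) for C1qb, both clear of 0 in counting error. For C1qc it was 0.12 (0.0008 to 0.25), which only just clears 0. Summed over the chains, C1q reached 7684 CPM (7398 to 7979) in Lipo-Clo macrophages against 6543 CPM (6314 to 6778) in Lipo-PBS ones, a 1.17-fold difference (1.12 to 1.24). The direction of the summed ratio reversed, to -0.80, when macrophage, monocyte, dendritic cell and osteoclast clusters were taken as one class. That class adds more cells to Lipo-Clo than to Lipo-PBS.

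C1q was found in nearly every macrophage of both libraries. C1qa was detected in 94.2% and 93.6% of macrophages in Lipo-Clo and Lipo-PBS, C1qb in 95.7% and 95.9%, and C1qc in 95.7% and 93.6%, against 3.02% and 2.89% of erythroid cells with a UMI of any chain. All 3 chains were seen in 127 of 139 Lipo-Clo macrophages (91.4%) and 151 of 172 Lipo-PBS macrophages (87.8%), and no chain was seen in 3 and 2 cells. The median macrophage held 17 C1q UMIs in Lipo-Clo (quartiles 9.5 and 27, highest 75) and 16 in Lipo-PBS (quartiles 11 and 24, highest 49). Scaled to 10000 UMIs of the cell, the medians were 86.7 and 67.8, and the cells of the libraries overlapped over most of their range. Macrophages had a median of 2030 total UMIs in Lipo-Clo and 2363 in Lipo-PBS.

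**Figure D2:**
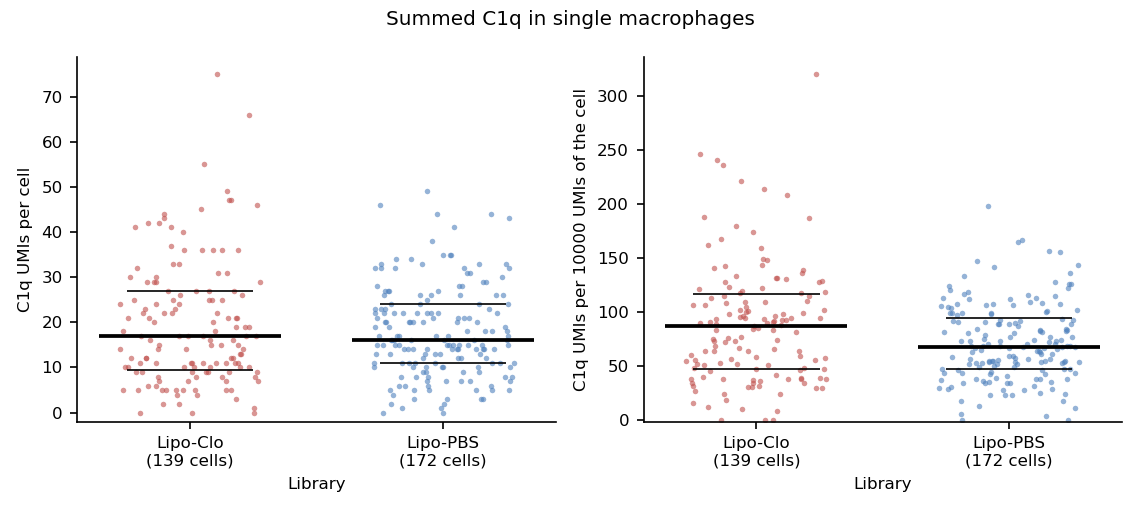
C1q UMIs (C1qa, C1qb and C1qc summed) in each macrophage, as UMIs per cell on the left and per 10000 UMIs of the cell on the right, for 139 Lipo-Clo and 172 Lipo-PBS cells. Each point is a cell, the thick line is the median (17 and 16 UMIs per cell, 86.7 and 67.8 per 10000) and the thin lines are the quartiles, and the clouds of both libraries overlap.

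Both macrophage clusters carried C1q. In the cluster led by Pf4, Ccl4 and Ccl7, with 90 Lipo-Clo and 125 Lipo-PBS cells, summed C1q was 8373 and 6993 CPM, a log2 ratio of 0.26 (0.17 to 0.35). In the cluster led by Ms4a7, Pf4 and Lyz2, with 49 and 47 cells, it was 6348 and 5565 CPM (log2 ratio 0.19, 0.05 to 0.33). The chains were spread unevenly there, with C1qa at a log2 ratio of 0.50 (0.23 to 0.76) and C1qc at -0.08 (-0.32 to 0.16). Among the C1q UMIs of all macrophages, 37.8% were C1qc, 31.6% C1qb and 30.6% C1qa, and C1qc made up 36.3% of them in the Lipo-Clo library against 39.1% in the other. Macrophages also carried collagen-list RNA, at 12597 and 10330 CPM, whose part in the ratio was not tested. In the 27 and 19 macrophages with no UMI of Col1a1 or Col1a2 the summed ratio was 0.61, a subset chosen after the data had been seen.

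As a source, macrophages held 78.5% (77.1 to 79.9) of the C1q UMIs in Lipo-Clo and 73.0% (71.6 to 74.3) in Lipo-PBS. Neither share counts the cluster of several lineages led by Ccl12, Pf4 and Ccl4, with 1 Lipo-Clo and 46 Lipo-PBS cells. Whole libraries held 3467 and 4217 C1q UMIs, or 129 and 163 CPM. Dendritic cells, which present antigen, held 11.9% of C1q UMIs in Lipo-Clo and 3.04% in Lipo-PBS, with 412 and 128 UMIs, or 971 and 425 CPM (log2 ratio 1.19, 0.90 to 1.49). This signal sat in few cells, since the median dendritic cell had 0 C1q UMIs and the 10 highest cells held 79.6% and 93.8% of them. A C1q UMI was seen in 20.7% of Lipo-Clo and 19.0% of Lipo-PBS dendritic cells. The dendritic class leaves out a cluster of several lineages led by Cd74, H2-Eb1 and H2-Aa, with 0 Lipo-Clo and 43 Lipo-PBS cells. Macrophage-list RNA in this class summed to 4114 CPM in Lipo-Clo, with 14 of 16 markers seen, and to 3044 CPM in Lipo-PBS, with 15 of 16 seen, and its part was not tested.

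Cells rich in C1q were mostly macrophages. Of the 123 Lipo-Clo and 154 Lipo-PBS cells with at least 10 C1q UMIs, 104 (84.6%) and 137 (89.0%) were in macrophage clusters, and 19 and 17 were elsewhere. Monocytes had 89.5 CPM (Lipo-Clo) and 163 CPM (Lipo-PBS), osteoclasts 39.7 and 210 CPM, and granulocyte progenitors 14.6 and 216 CPM, each on at most 60 UMIs. Neutrophils had 5.99 and 10.6 CPM, near the erythroid background of 11.3 and 10.3 CPM. T or NK cells had 50.3 CPM in Lipo-Clo and no UMI in 113 Lipo-PBS cells. The Lipo-Clo value rests on 13 UMIs, of which 1 cell held at least 10. The clusters of several lineages held 10 C1q UMIs in Lipo-Clo and 514 (12.2% of the library's C1q) in Lipo-PBS, at 31.5 and 156 CPM.

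**Figure D3:**
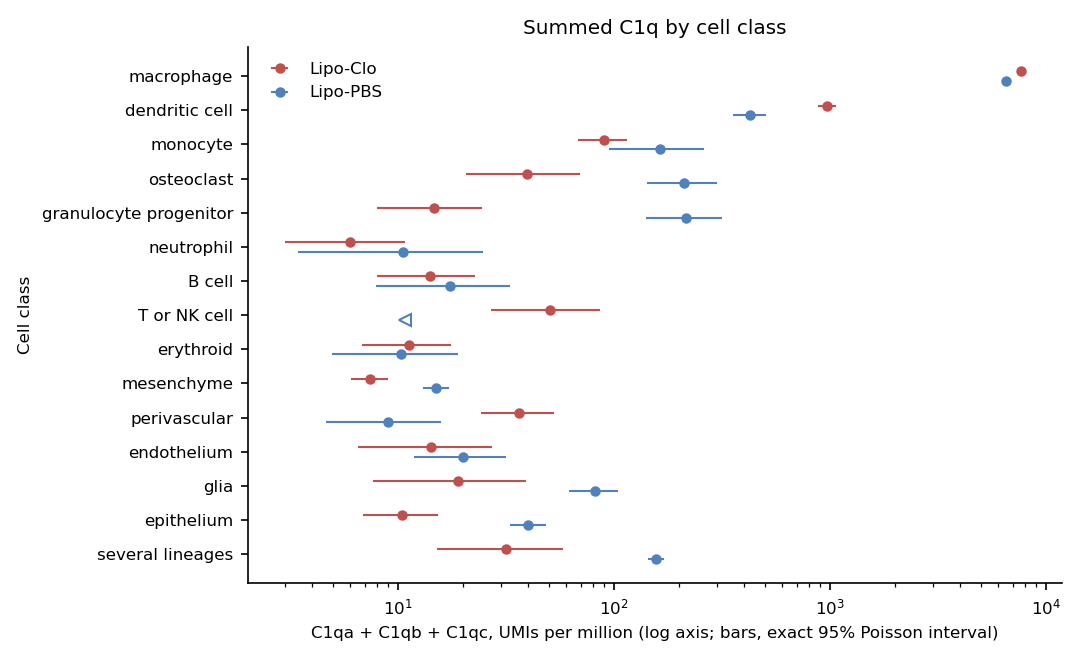
Summed C1q level in CPM on a log axis, by cell class, for Lipo-Clo and Lipo-PBS. Points are libraries, bars are exact 95% Poisson intervals, and an open triangle marks the level of 3 counts where a class had 0. Macrophages lie highest in both libraries at 7684 and 6543 CPM, followed by dendritic cells at 971 and 425 CPM.

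Mesenchyme, the large class of dental and surrounding stromal cells (4259 Lipo-Clo and 4032 Lipo-PBS cells), held little C1q. It had 107 and 201 C1q UMIs, or 7.39 and 15.0 CPM, with a log2 ratio of -1.02 (-1.37 to -0.67). This was below the erythroid level in Lipo-Clo and above it in Lipo-PBS, a level that rests on 19 and 10 UMIs. B cells, which should also lack C1q, held 16 and 9 C1q UMIs, and 98.7% and 97.1% of them had none. Whether mesenchymal C1q exceeded the background from free RNA was not tested. A C1q UMI was found in 1.97% and 2.46% of these cells, and in 0.93% and 0.88% after thinning each cell to 1000 UMIs, against an unthinned 3.02% and 2.89% of erythroid cells. One Lipo-PBS cell held 39 of the UMIs. No UMI of Ptprc, Tyrobp, Lyz2, S100a8 or Cd74 was seen in 2929 Lipo-Clo and 3537 Lipo-PBS mesenchymal cells. In these, C1q was 6.39 CPM (Lipo-Clo) against 6.81 CPM (Lipo-PBS), with a log2 ratio of -0.09 (-0.61 to 0.42). Tyrobp is also a listed macrophage marker, so this filter takes out cells with macrophage RNA, and it takes out more Lipo-Clo cells.

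The proteases that act with C1q, C1s1 and C1ra, lay in mesenchyme and perivascular cells, and their mesenchymal levels did not differ beyond counting error. C1s1 (ENSMUSG00000038521), which encodes C1s, had 1204 UMIs in Lipo-Clo and 1196 in Lipo-PBS mesenchyme, or 83.2 and 89.2 CPM, a log2 ratio of -0.10 (-0.22 to 0.02). It was seen in 20.2% and 21.3% of mesenchymal cells, and mesenchyme held 73.9% and 61.9% of its UMIs. Neither share counts the clusters of several lineages, with 98 Lipo-Clo and 862 Lipo-PBS cells, as mesenchyme. Over the settings tried the share ran from 67.5% to 75.8% in Lipo-Clo and from 57.7% to 72.8% in Lipo-PBS. In perivascular cells, the pericytes and muscle cells around vessels, C1s1 had 234 and 332 UMIs, or 304 CPM (266 to 345) against 249.1 CPM (223 to 277). That is a 1.22-fold difference (1.03 to 1.45), whose interval only just clears equality. The log2 ratio, 0.29 (0.04 to 0.53), was no longer clear of 0 with doublets kept (0.20, -0.03 to 0.43) or with every deposited cell kept (0.19, -0.04 to 0.42). Erythroid background was 13.7 and 20.6 CPM. Within mesenchyme, C1s1 was 160 and 164 CPM in fibroblasts led by Mfap5, 151 and 126 CPM in dental follicle-like cells, 12.9 and 10.8 CPM in odontoblast-like cells and 17.0 and 28.4 CPM in osteoblast- or cementoblast-like cells. Of the 10 subclusters with at least 20 UMIs, 7 were lower and 3 higher in Lipo-Clo, and only the dental follicle-like one was clear of 0 (0.27, 0.01 to 0.53).

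C1ra (ENSMUSG00000055172), which encodes C1r, had 723 UMIs in Lipo-Clo and 663 in Lipo-PBS mesenchyme, or 49.9 and 49.4 CPM, a log2 ratio of 0.01 (-0.14 to 0.17). Mesenchyme held 84.8% and 72.1% of its UMIs, and 13.8% and 13.4% of mesenchymal cells had one. These shares also leave the clusters of several lineages out of mesenchyme. Over the settings tried they ran from 78.7% to 85.6% in Lipo-Clo and from 67.8% to 84.1% in Lipo-PBS. Perivascular cells had 50.6 and 46.5 CPM. For C1ra, 7 of the 9 subclusters with at least 20 UMIs were higher in Lipo-Clo and 2 were lower, 1 of each clear of 0. In periodontal ligament (PDL)-like cells led by Pappa2 it was 32.8 and 46.7 CPM (log2 ratio -0.51, -0.94 to -0.08), and in PDL-like cells led by Edil3 it was 78.7 and 42.0 CPM (0.91, 0.35 to 1.46). Both proteases were often seen in the same cells, since C1s1 was detected in 41.1% and 37.9% of C1ra-positive mesenchymal cells, above its share in all of them. Deeper cells have more chances of showing both genes, and this part was not tested. C1rb and C1s2, close copies of these genes, had 4 and 6 UMIs in all, and how reads matching a copy were shared out is uncertain.

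Serping1 (ENSMUSG00000023224), which encodes the inhibitor of both proteases, was the member with the most UMIs, and it was lower in Lipo-Clo mesenchyme. It had 3773 UMIs in Lipo-Clo and 4987 in Lipo-PBS mesenchyme, or 261 CPM (252 to 269) and 372 CPM (362 to 382). The log2 ratio was -0.51 (-0.57 to -0.45), a level 1.43-fold higher (1.37 to 1.49) in Lipo-PBS and short of the 1.5-fold limit used below. It was seen in 42.8% and 51.7% of mesenchymal cells, and in 22.4% and 29.4% after thinning. Erythroid background was 48.1 and 56.8 CPM. Once each library was given an equal weighting of subclusters, the log2 ratio was -0.24, so that its size moved with the mixture while its sign did not.

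Serping1 differed more among mesenchymal subclusters than between libraries. It was 756 and 821 CPM in the Mfap5 fibroblasts (430 Lipo-Clo and 802 Lipo-PBS cells), 527 and 599 CPM in fibroblasts led by Col14a1, 405 and 519 CPM in dental follicle-like cells and 42.1 and 72.8 CPM in osteoblast- or cementoblast-like cells. Of 11 subclusters, 9 were lower in Lipo-Clo, 6 of them clear of 0, among them the Edil3 PDL-like cells (-0.48, -0.73 to -0.25) and cycling cells (-0.81, -1.11 to -0.51). The pulp- or papilla-like subclusters had 149 and 115 CPM (0.37, -0.08 to 0.83) and 116 and 104 CPM (0.16, -0.22 to 0.55). In the Mfap5 fibroblasts the ratio was -0.12 (-0.24 to 0.00). In perivascular cells Serping1 was 458 and 425 CPM (0.11, -0.09 to 0.30), and the difference between the classes was not tested. Other classes lay near the erythroid level, among them macrophages (45.2 and 48.9 CPM) and epithelium (38.4 and 60.9 CPM), whereas neutrophils had 27.2 and 82.6 CPM and granulocyte progenitors 18.8 and 233 CPM. Collagen-list RNA was 8221 and 13483 CPM in the neutrophils and 5248 and 28253 CPM in the granulocyte progenitors, and its part was not tested.

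**Figure D4:**
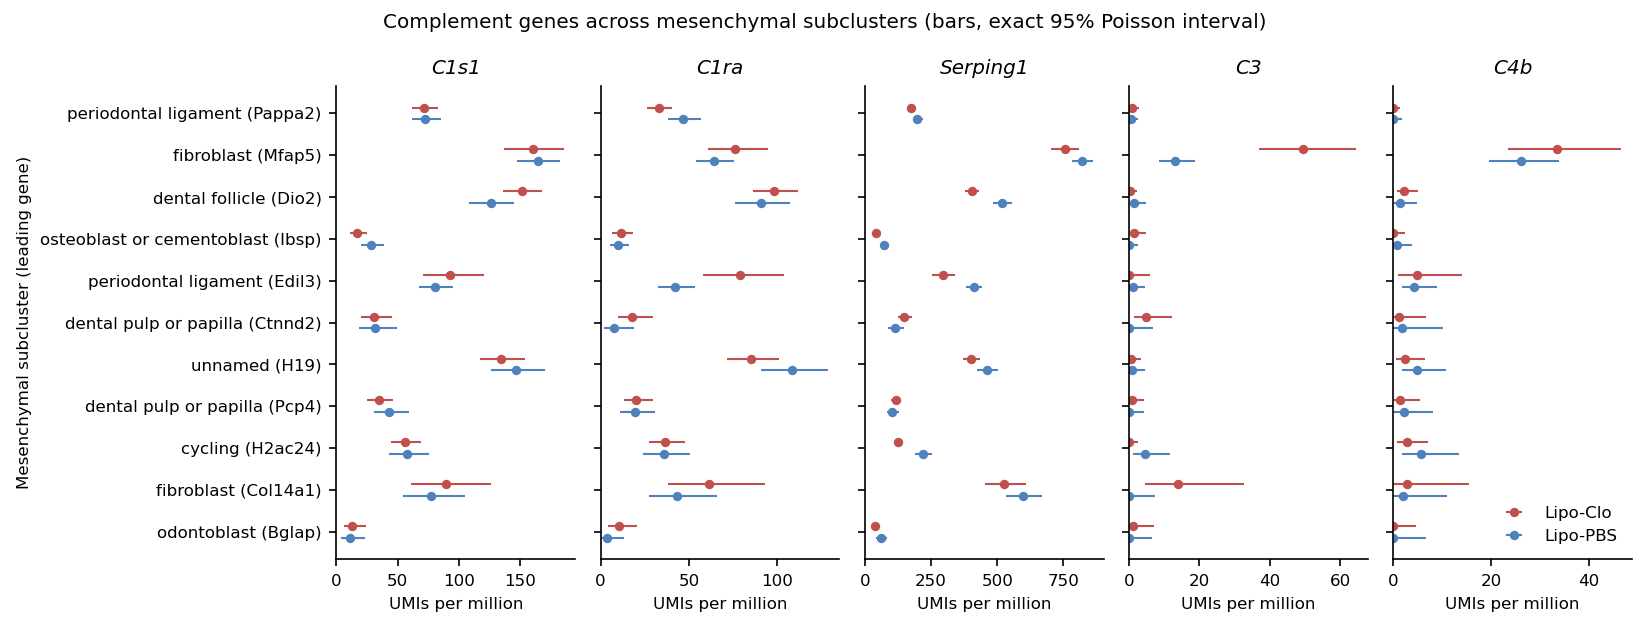
Level of C1s1, C1ra, Serping1, C3 and C4b in CPM across 11 mesenchymal subclusters, each named by its class and leading gene, for Lipo-Clo and Lipo-PBS. Points are libraries and bars exact 95% Poisson intervals, with Serping1 highest in the Mfap5 fibroblasts (756 and 821 CPM) and C3 there at 49.4 CPM (Lipo-Clo) against 13.01 CPM (Lipo-PBS).

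C3 (ENSMUSG00000024164), on which all complement pathways meet, lay mainly in neutrophils and other myeloid cells and in 1 fibroblast subcluster. The libraries held 341 C3 UMIs in Lipo-Clo and 114 in Lipo-PBS, or 12.7 and 4.41 CPM. Neutrophils had 145 and 31 of them, or 79.0 CPM (66.7 to 93.0) and 65.6 CPM (44.6 to 93.2), a log2 ratio of 0.27 (-0.30 to 0.88) that does not clear 0. Monocytes had 73.1 and 125 CPM (-0.77, -1.67 to 0.24), and granulocyte progenitors 59.6 and 41.5 CPM, on 57 and 5 UMIs. With each library clustered on its own the neutrophil ratio was 1.15 (0.63 to 1.70). It was 0.56 (0.02 to 1.13) with doublets kept and 0.52 (-0.02 to 1.09) with every deposited cell kept. The neutrophil class leaves out clusters of several lineages led by Cstdc5 (14 Lipo-Clo and 98 Lipo-PBS cells) and by Ngp (5 and 45).

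In fibroblasts led by Mfap5, C3 was 49.4 CPM (37.0 to 64.6) in Lipo-Clo cells, from 53 UMIs, and 13.01 CPM (8.64 to 18.8) in Lipo-PBS, from 28 UMIs. This is a 3.79-fold difference (2.36 to 6.23), and a C3 UMI was seen in 27 of 430 (6.28%) and 17 of 802 cells (2.12%). The 10 highest cells held 36 of the 53 and 21 of the 28 UMIs. Neutrophil-list RNA in the same cells summed to 1132 CPM against 107 CPM. Among the 329 and 706 of them with no UMI of the 5 immune genes, where that list was 367 and 84.0 CPM, C3 was 50.3 and 14.1 CPM, a log2 ratio of 1.84 (1.08 to 2.61). In all mesenchyme C3 was 4.83 and 2.83 CPM (0.77, 0.18 to 1.38), and the log2 ratio was 1.55 with an equal weighting of subclusters.

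C4b (ENSMUSG00000073418), which encodes C4, was sparse, with 107 UMIs in Lipo-Clo and 170 in Lipo-PBS. Glia, the cells that ensheath nerves, had 78.7 and 71.9 CPM (0.13, -0.57 to 0.81), from 29 and 54 UMIs. Mesenchyme had 56 and 81 UMIs, or 3.87 and 6.04 CPM, a log2 ratio of -0.64 (-1.16 to -0.13). That ratio was 0.088 once each library was given an equal weighting of subclusters and 0.00074 in cells with no UMI of the 5 immune genes, and it was -1.51 with each cell thinned to 1000 UMIs. The Mfap5 fibroblasts held 36 and 56 of these UMIs, at 33.5 and 26.0 CPM (0.37, -0.28 to 1.00), and those without a UMI of the 5 immune genes had 45.1 and 24.9 CPM (0.86, 0.18 to 1.52). C4a, a close copy, had 14 UMIs in all, and how reads matching both were counted is uncertain.

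Cfd (ENSMUSG00000061780), the protease of the alternative pathway, had 0 UMIs in all 19015 deposited cells. A count of 0 allows up to 0.112 CPM in the Lipo-Clo cells used and up to 0.116 CPM in the Lipo-PBS ones, at 3 counts per library. A gene with low capture cannot be told apart from an absent one.

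Against all genes, the members' counts past 1.5-fold were read by class, among genes with at least 20 UMIs. In mesenchyme, 1 of 8 members, C3, was at least 1.5-fold higher in Lipo-Clo, where 5.56% of 15275 genes were, and 4 of 8, C1qa, C1qb, C1qc and C4b, were at least 1.5-fold lower, where 9.89% were. The median log2 ratio was -0.58 over the 8 members and -0.03 over all genes. In mesenchymal cells with no UMI of the 5 immune genes none of those 4 passed the limit, and C3 alone did. In macrophages, 1 of 5 members was higher, C1s1 on 13 and 9 UMIs, against 12.3% of 5606 genes, and none was lower, against 20.2%. In perivascular cells none of 3 members passed the limit, against 10.2% of 9143 genes higher and 10.9% lower. In neutrophils none of 4 was higher, against 7.68% of 6926 genes, and 3 of 4 (C1s1, C1ra and Serping1) were lower, against 36.2%, with a median of -0.34 over all genes there. Collagen-list RNA in the neutrophils was 8221 and 13483 CPM, and its part in these values was not tested.

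**Figure D5:**
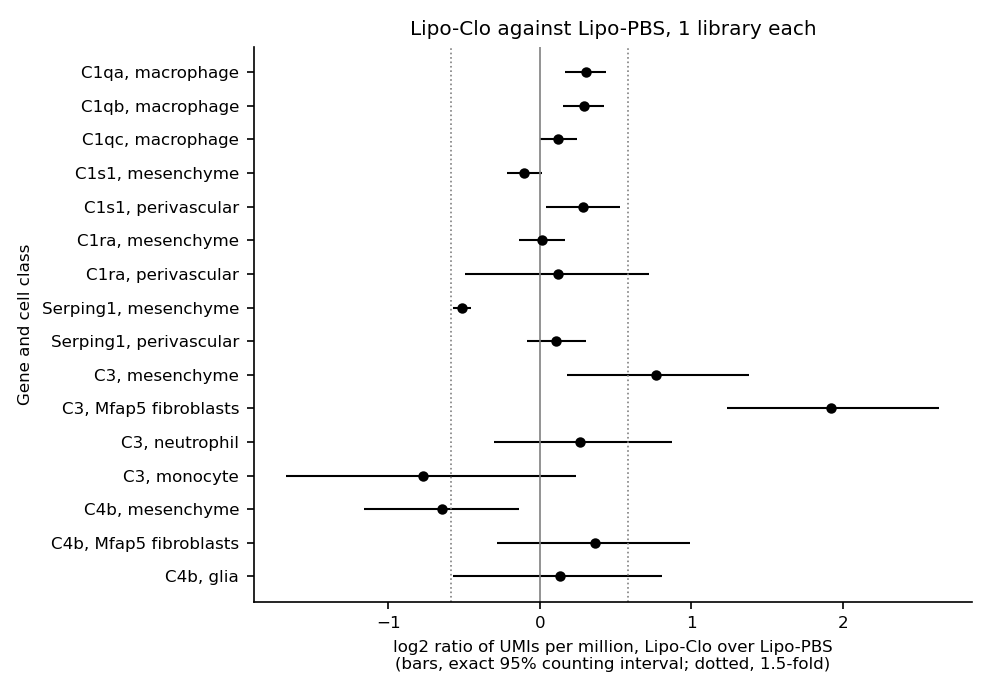
log2 ratio of CPM, Lipo-Clo over Lipo-PBS, for members in the classes that carry them, with exact 95% counting intervals and dotted lines at 1.5-fold. C3 in Mfap5 fibroblasts lies farthest to the right (1.92, 1.24 to 2.64), Serping1 in mesenchyme lies at -0.51, and C1s1 and C1ra in mesenchyme lie at -0.10 and 0.01.

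The rest of the pathway was read from a list of 49 genes, of which 23 had at least 100 UMIs. In mesenchyme, 1 of 21 listed genes in use was at least 1.5-fold higher (Ptx3) and 5 were lower (Colec11, Masp1, Vtn, Cd55 and Cd93), with a median log2 ratio of -0.15, where 5.56% of all genes were higher and 9.89% lower. Masp1, a protease of the lectin pathway, was 10.2 CPM against 30.7 CPM in mesenchyme (-1.60, -1.88 to -1.32), and Ptx3, a pattern recognition protein, had 164 and 85 UMIs there (0.84, 0.45 to 1.23). Cd55, which speeds decay of the C3-cleaving enzyme, had 147 and 390 UMIs in mesenchyme (-1.52), whereas in epithelium it was 183 and 79.8 CPM (1.20). Mesenchymal subclusters differed in size, with 430 Lipo-Clo and 802 Lipo-PBS Mfap5 fibroblasts and 212 and 539 Edil3 PDL-like cells. The part of this mixture in the mesenchymal values was not tested. Clusterin, encoded by Clu, which restrains the terminal pathway, was 9508 and 3633 CPM in epithelium (1.39, 1.35 to 1.42). The epithelium was made up differently in the libraries, with 593 Lipo-Clo and 336 Lipo-PBS cells in the cluster led by Ambn and Odam and 179 and 376 in the one led by Lgals7 and Krt14, and its marker list summed to 44811 and 19800 CPM. A cluster of several lineages led by Odam and Ambn, with 1 Lipo-Clo and 97 Lipo-PBS cells, is not counted there. The part of these differences in the epithelial values was not tested.

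In macrophages, 0 of 11 listed genes were at least 1.5-fold higher and 4 were lower, among them Fcna, Colec12 and Cr1l, with a median of -0.24, where 12.3% of all genes were higher and 20.2% lower. The receptors for C3a and C5a, C3ar1 and C5ar1, were 279 and 330 CPM (-0.24, -0.62 to 0.14) and 311 and 262 CPM (0.25, -0.14 to 0.63) in macrophages, neither clear of 0. Properdin, encoded by Cfp, was 133 and 123 CPM. In perivascular cells 2 of 11 were higher (Clu and Vtn) and 1 lower (Cd59b), where 10.2% and 10.9% of all genes were. In neutrophils 1 of 11 was higher (Cfp), where 7.68% of all genes were, and 4 were lower, among them Colec12, Clu and Csmd1, where 36.2% of all genes were. None of the 7 terminal pathway genes had 100 UMIs.

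The other listed genes with at least 100 UMIs are given in the class where each was highest, Lipo-Clo first. Among recognition genes, the scavenger lectin Colec12 was 253 and 322 CPM in mesenchyme, the lectin Colec11 27.3 and 36.01 CPM in perivascular cells, and the ficolin Fcnb 111 and 191 CPM in granulocyte progenitors. C2, the partner of C4 in the C3-cleaving enzyme, was 37.6 and 33.8 CPM in perivascular cells, and C1rl, a relative of C1r, was 13.4 CPM and 0 in monocytes. Vitronectin, encoded by Vtn, was 98.7 and 63.0 CPM in perivascular cells (0.65), Susd4 22.2 and 42.0 CPM in endothelium and Csmd1 741 and 721 CPM in glia. The membrane regulator Cd59a was 217 and 200 CPM in glia, Cd59b 14.8 and 18.6 CPM in erythroid cells, Cr1l 76.1 and 95.01 CPM in endothelium and Cd46 11.09 and 11.05 CPM there. The integrin chains of complement receptor 3, Itgam and Itgb2, were 114 and 140 CPM and 101 and 102 CPM in neutrophils, and Cd93 was 601 and 386 CPM in endothelium (0.64, 0.43 to 0.85). The endothelium joined a cluster led by Cdh5 and Flt1, with 374 cells in each library, and one led by Ccl21a and Mmrn1, with 29 and 87 cells. A cluster of several lineages led by Ccl21a and Mmrn1, with 2 Lipo-Clo and 50 Lipo-PBS cells, is not counted there. The endothelial marker list summed to 6433 and 4891 CPM, and the part of these differences was not tested. In these classes Cd93 and Vtn were higher and Colec12, Fcnb and Susd4 lower in Lipo-Clo beyond counting error, and the intervals of the rest included equality.

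The genes most like each member were ranked by Pearson correlation of log2(CPM + 1) over 28 points, the 14 classes of both libraries, among 12246 genes. These points share libraries, depth and the way classes were formed. Macrophage genes such as Aif1 and Ms4a7 also served to name classes, as did Hp (monocyte list) and Gldn (dental pulp or papilla list). C1qa and C1qb were closest to each other (r = 0.96), followed outside the pathway by Ms4a7 (0.88) for C1qa and Clec4a1 (0.91) for C1qb. C1s1 was closest to Pdgfrb (0.93) and Serping1 to Prrx1 (0.92), both stromal genes, and C1ra to Ddr2 (0.85). C3 was closest to Hp (0.86), a gene of maturing granulocytes, and C4b to Gldn (0.80), a Schwann cell gene.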

How the data were processed

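Single-cell RNA sequencing was examined in 1 Lipo-Clo and 1 Lipo-PBS library. The authors deposited raw UMI counts per gene and cell. The file header names Cell Ranger 8.0.0, while the submitters' processing notes name Cell Ranger 3.1.0, Seurat 3.1.1 and GRCm39 (mm39). Depth was 31053404 UMIs in 9362 cells (Lipo-Clo) and 30537834 in 9653 cells (Lipo-PBS).

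A cell needed 200 genes or more, and no more than 20% of its UMIs from mitochondrial genes. Scrublet in scanpy 1.11.5 called 0 and 1 doublets, so it had not worked, and the 632 and 633 highest scores were left out. Clustering used 2000 variable genes without 58 complement genes, 30 components, 20 neighbours and Leiden resolution 1 (leidenalg 0.10.2, seed 1). A second pass (1000 genes, 20 components, resolution 1) took macrophage, monocyte, dendritic cell, osteoclast, unnamed and mixed clusters together. Names needed at least 3 markers at 2-fold and in 10% of cells. Mesenchyme was reclustered at resolution 0.6.

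Intervals came from scipy 1.17.1, and alternative scalings from edgeR 4.0.16 and DESeq2 1.42.0. Ratio code was tested on simulated data. Named genes were all 9 members, pathway genes by listed role (values where 100 UMIs were reached), and the 3 genes most like each member. Some items of these lists are not reported here. The members and lists were chosen with earlier results of these data known. Other settings were tried, 20 listed in advance and 2 chosen after seeing the data.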

Additional observations from a re-analysis of the deposited data

Results flagged for a closer look

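These values were picked out because a member differed in opposite directions between cell classes, each interval being clear of 0 in counting error. With 1 library per condition the difference between classes was not tested. The intervals also treat UMIs as independent, which C1q UMIs gathered in few cells are not. The 10 highest cells held 79.6% (Lipo-Clo) and 93.8% (Lipo-PBS) of dendritic cell C1q UMIs, and 100% of osteoclast ones in both libraries. Log2 ratios are Lipo-Clo over Lipo-PBS. Summed C1q was 0.23 in macrophages, 1.19 in dendritic cells and 2.01 in perivascular cells, the last on 28 and 12 UMIs. It was -1.02 in mesenchyme, -2.40 in osteoclasts on 12 and 30 UMIs, and -3.88 in granulocyte progenitors on 14 and 26 UMIs. It was -2.09 in glia on 7 and 61 UMIs, and -1.94 in epithelium on 27 and 106 UMIs. At least 10 C1q UMIs each were held by 1 Lipo-Clo and 3 Lipo-PBS epithelial cells and by 1 Lipo-PBS glial cell. In mesenchymal cells with no UMI of the 5 immune genes the C1q ratio was -0.09 (-0.61 to 0.42). One Lipo-PBS mesenchymal cell held 39 of that class's 201 UMIs, and 1 Lipo-Clo granulocyte progenitor held at least 10 of the 14 there. C1s1 was 0.29 in perivascular cells and -0.61 in epithelium, on 39 and 61 UMIs there. In both libraries the epithelial level of C1s1 lay close to its erythroid background given above. Whether it exceeded that background was not tested. The perivascular interval included 0 with doublets kept (-0.03 to 0.43) and with every deposited cell kept (-0.04 to 0.42). The epithelial clusters differed in size between the libraries, with 593 and 336 cells in the one led by Ambn and 179 and 376 in the one led by Lgals7. A cluster of several lineages led by Odam and Ambn, with 1 and 97 cells, is not counted there.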

How the results depend on the processing

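No paired analysis was possible because there is only 1 library in a group. The macrophage C1q log2 ratio, 0.23, was 0.38 at Leiden resolution 2, 0.32 with cells thinned to 1000 UMIs, 0.58 with macrophages called by 3 UMIs over 7 markers (206 and 344 cells), 0.61 without collagen UMIs (chosen after seeing the data) and -0.80 with 4 myeloid classes together, where C1qa was -0.72, C1qb -0.74 and C1qc -0.92. That setting adds cells low in C1q, and more of them to Lipo-Clo than to Lipo-PBS. They are 128 and 43 monocytes, 116 and 95 dendritic cells and 41 and 29 osteoclasts, whose part in the reversal was not tested. C4b in mesenchyme turned from -0.64 to 0.088 (same mixture) and 0.00074 (no immune UMIs), and was -1.51 with thinned cells. C3 and Serping1 in mesenchyme kept their sign in 30 of 30 results.

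The 5 members past 1.5-fold in mesenchyme became 3 with each library clustered on its own, 3 with the mean over scaled cells, 3 with thinned cells, 1 without immune UMIs, 2 at a limit of 2 and 0 among genes seen in 10% of cells, a filter that only C1s1, C1ra and Serping1 pass and that leaves out the 5 by construction. Of all genes, 15.4% passed the limit, against 5.23% at 2-fold, 40.0% at the smallest limit tried, 26.0% without a filter on low counts and 6.34% in 10% of cells. The share of these that were higher, 35.99%, was 46.7% with DESeq2 size factors and 15.6% among genes seen in 10% of cells. The cause was not tested.

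The macrophage share of C1q UMIs in Lipo-Clo (78.5%) was 73.6% with doublets kept, 75.6% with at least 500 genes, 73.5% with every cell, 74.7% and 75.5% at Leiden 0.5 and 2, 75.7% with each library clustered on its own, 87.7% with complement genes among the variable genes, 90.1% by 7 markers and 92.5% for 4 myeloid classes. In Lipo-PBS (73.0%) it was 71.1% at Leiden 0.5, 74.4% clustered on its own, 76.0% with complement genes, 89.1% by 7 markers and 77.1% for 4 classes. With complement genes among the variable genes C1q can itself shape the clusters, and adding classes to macrophages cannot lower the share. The mesenchymal share of C1s1, C1ra, C3, C4b, Cfd and Serping1 UMIs in Lipo-Clo (76.6%) was 70.7% with doublets kept, 75.5% with at least 500 genes, 71.6% with every cell and 78.0% with mixed clusters counted as mesenchyme. In Lipo-PBS (69.2%) it was 64.7% with doublets kept, 65.1% with every cell and with each library clustered on its own, 71.1% at Leiden 0.5 and 79.8% with mixed clusters, a setting chosen after seeing the data. Few UMIs limit C3, C4b and C1q outside macrophages, and Cfd had none.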
